A study of Mus musculus with 6 samples.

Results

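The branched-chain amino acid breakdown enzymes are 10 genes whose products take leucine, isoleucine and valine apart in mitochondria or set the pace of that process. They were listed by name: Bcat2, Bckdha, Bckdhb, Dbt, Bckdk, Ppm1k, Ivd, Mccc1, Mccc2 and Hibadh. No cutoff on a measured value set the list, but earlier results of these data were known when it was chosen. All 10 had an array feature of their own, 1 each, among 14860 genes with such a feature. Expression was measured on 1-colour arrays in the tibialis anterior, a muscle of the lower leg made mostly of fast fibres, from 6 male mice aged 8 weeks. Of these, 3 were ATF4 mKO mice, with a muscle-specific knockout of the transcription factor ATF4, and 3 were littermate controls. Every mouse in both groups was fasted for 24 h, so no fed muscle stands beside these values. Not given in the sources used here are the strain, the alleles of the controls and the promoter that drove the deletion. Values are log2 expression, and a log2 fold change is the ATF4 mKO mean minus the control mean.

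Skeletal muscle is a main site of the first step of branched-chain amino acid breakdown. There the mitochondrial transaminase BCAT2 moves the amino group to 2-oxoglutarate and leaves a branched-chain keto acid. The keto acids are then decarboxylated by the branched-chain keto acid dehydrogenase complex, the step that commits them to breakdown. A kinase, BCKDK, switches the complex off by phosphorylating its E1 alpha subunit, and a phosphatase, PPM1K, switches it back on. After that step the leucine, isoleucine and valine routes part. In fasting, muscle protein is a source of these amino acids, and ATF4 is known as a regulator of amino acid synthesis, transport and tRNA charging genes. The study asked how loss of ATF4 alters mRNA levels in muscle of fasted mice.

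Promoter sequence is shown first, because the genes can be set against Yars, which had the second smallest p-value after Atf4 in the same mice, at the C/EBP-ATF response element through which ATF4 binds DNA. Windows from 250 bases before to 50 after the transcript start came from RefSeq (GRCm38.p6) and were at hand for 9 of the 10 genes, all but Dbt. Bcat2 and Bckdhb each had 2 listed starts. The element was searched as TGATGNAA on both strands. It was present in 0 of the 9 genes, against 4.13% of 17492 protein-coding genes. At so low a share, 0 of 9 does not set these genes apart from genes at large. Any link between the element and the changes in mRNA was not tested. Yars, the tyrosyl-tRNA synthetase gene, held it from base 4 after its start. The stretch at chr4:129189896-129189923 (plus strand) reads as follows, with the element in capitals.

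Yars: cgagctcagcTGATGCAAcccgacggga

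What the windows of most of these genes did hold was the CCAAT box, the sequence bound by the factor NF-Y. It was searched as CCAAT on both strands, so that ATTGG counts too. At least 1 match was found in 7 of the 9 genes, against 42.3% of protein-coding genes. Ivd had 4 matches, Mccc1 and Mccc2 had 3 each, Ppm1k had 2 and Bckdk and Hibadh had 1 each, while Bcat2 and Bckdha had 0. Bckdhb had 2 at its first start and 1 at its second. The Yars window held 1 match as well, so the box does not separate these genes from Yars. In Mccc2 a pair of the matches overlapped. The stretches below begin 150 bases before the start and stop before the outermost annotated start of the gene, with each match they hold in capitals. For Ivd this leaves out the match nearest the start. They are Ivd at chr2:118861844-118861958 (plus strand), Mccc2 at chr13:100015640-100015789 (minus), Bckdk at chr7:127903923-127904072 (plus) and Ppm1k at chr6:57535553-57535637 (minus). Bckdha at chr7:25658783-25658911 (minus) is shown as a gene without a match. Both motifs were chosen with the results known, and a match is a string of letters, not a shown binding site.

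Ivd: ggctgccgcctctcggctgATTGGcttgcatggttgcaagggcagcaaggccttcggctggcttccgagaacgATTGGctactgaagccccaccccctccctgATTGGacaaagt
Mccc2: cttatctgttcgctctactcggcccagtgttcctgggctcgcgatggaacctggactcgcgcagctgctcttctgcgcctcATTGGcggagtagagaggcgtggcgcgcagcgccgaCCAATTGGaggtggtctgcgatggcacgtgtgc
Bckdk: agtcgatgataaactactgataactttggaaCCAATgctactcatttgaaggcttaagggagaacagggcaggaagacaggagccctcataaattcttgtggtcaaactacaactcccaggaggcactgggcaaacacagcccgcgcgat
Ppm1k: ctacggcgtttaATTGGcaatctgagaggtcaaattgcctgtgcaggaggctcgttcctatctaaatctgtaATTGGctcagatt
Bckdha: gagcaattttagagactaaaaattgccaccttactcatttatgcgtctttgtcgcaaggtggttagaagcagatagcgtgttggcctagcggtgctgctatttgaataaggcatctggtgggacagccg

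**Figure D1:**
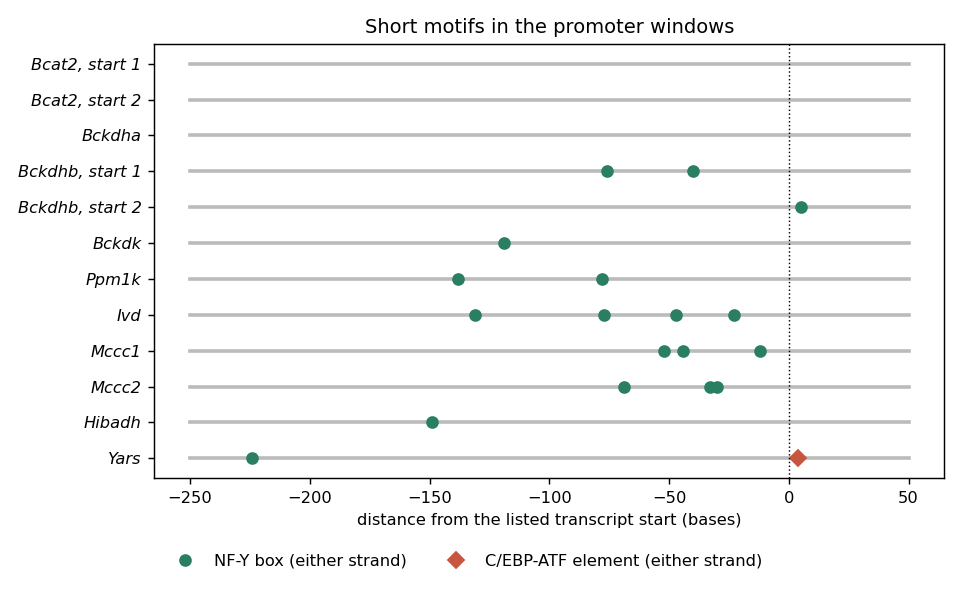
Positions of 2 short motifs in the promoter windows of 9 of the genes and of Yars. The horizontal axis is the distance in bases from the listed transcript start, and grey lines are the windows. Green circles are NF-Y boxes, of which the Yars window also holds 1. The red diamond, present in the Yars window only, is the C/EBP-ATF element.

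The Atf4 feature itself was lower in each ATF4 mKO muscle, at 28.7% of control with an adjusted p of 0.00268 in limma. Yars stood at 55.9% of control, with an adjusted p of 0.0337. These were the 2 features called among 16755, or 0.0119%. Yars no longer passed after removal of any single mouse, in an unmoderated fit, after centring arrays on their medians, or in a fit blocked on mouse number. Over 15 alternatives its adjusted p in limma ran from 0.0052 to 0.330 and its log2 fold change from -0.86 to -0.81. The 7 muscle fibre markers with a feature, among them Acta1 and Ckm, all lay above percentile 99.0 of signal over all features, a rank that probe affinity also affects. By their mean over the 6 mice, the hepatocyte genes Alb and Ttr, which should be absent, lay at percentiles 29.0 to 32.4. In control mouse 2, however, Alb read 6.08, above the array medians of 5.84 to 5.91. It read 4.79 to 5.20 in the other mice. Mixed tissue was measured, so fewer cells of a type and less RNA per cell cannot be told apart.

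None of the 10 breakdown genes passed the threshold of an adjusted p of 0.05 in limma over all features, and none had an unadjusted p under 0.05, which 3.09% of all features had. Their levels in ATF4 mKO muscle ran from 96.1% of control, for Mccc1, to 108% of control, for Ppm1k. In 6 genes the mean was above control and in 4 below it, where 50.6% of all features were above. The median log2 fold change of the 10 was 0.06, beside 0.0013 over all features, and the median size without sign was 0.06 for both. The 95% intervals all held 0. Over the 10 genes the lowest bound was -0.33, or 79.3% of control for Dbt, and the highest was 0.35, or 128% of control for Ppm1k. Each interval covers 1 gene and is not adjusted over the 10. For 1 more feature to be called, a change of 0.70 to 1.41 on the log2 scale would have been needed at the standard errors of these genes. Smaller changes were thus not detectable as calls with 3 mice a group. By level, all 10 features ranked above the median feature, at percentiles 66.6 to 93.8.

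**Figure D2:**
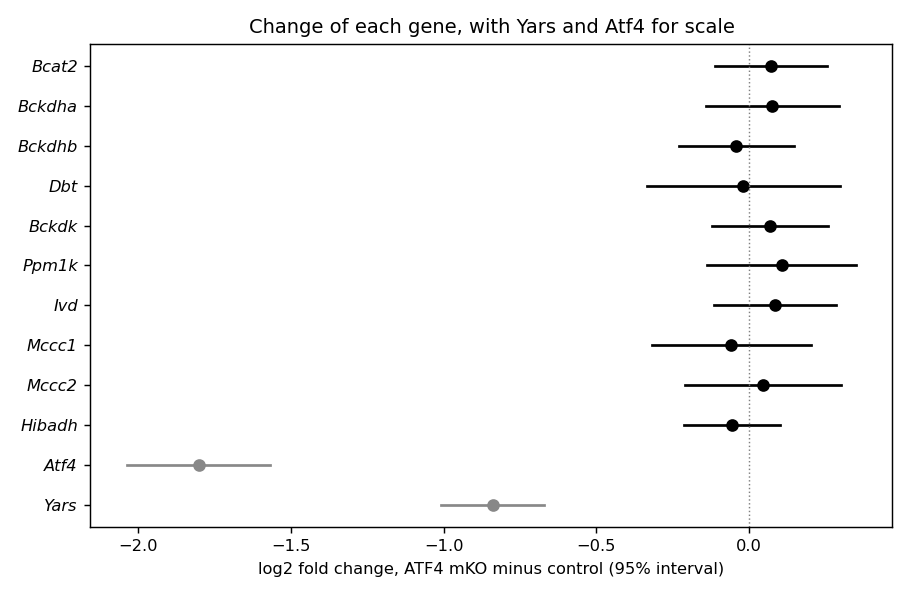
Log2 fold change of each gene, ATF4 mKO minus control, with its 95% interval from limma (3 mice a group). All 10 intervals of the breakdown genes, in black, hold 0, while Atf4 and Yars, in grey, lie at -1.80 and -0.84.

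Bcat2, the mitochondrial transaminase that opens the pathway, read 6.91, 6.77 and 6.91 in the controls and 6.87, 6.97 and 6.97 in the ATF4 mKO mice. The groups overlapped, because the lowest ATF4 mKO value lay below the highest controls. Its log2 fold change was 0.07 ± 0.08 (SE), with a 95% interval of 92.7% to 120% of control, and it was 0.03 without control mouse 2. Among the genes that feed the pathway, Slc25a44, a mitochondrial carrier of branched-chain amino acids, had 0.06 ± 0.08 (SE). Slc3a2, the heavy chain of the leucine transporter at the plasma membrane, stood at 93.7% of control with an interval of 82.2% to 107%.

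The branched-chain keto acid dehydrogenase complex has an E1 part of alpha and beta subunits, encoded by Bckdha and Bckdhb, an E2 core encoded by Dbt, and an E3 part, encoded by Dld, that it shares with other dehydrogenases. Bckdha read 6.47, 6.42 and 6.28 in controls and 6.34, 6.46 and 6.60 in ATF4 mKO muscle, a difference of 0.08 ± 0.09 (SE). The highest and the second lowest of the 6 values were both from ATF4 mKO mice, and the difference was 0.01 without mouse 3 and 0.14 without mouse 1 of that group. Bckdhb read 7.66, 7.58 and 7.54 in controls and 7.45, 7.64 and 7.55 in ATF4 mKO muscle, at 97.2% of control. Its sign turned without ATF4 mKO mouse 1.

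Dbt, the transacylase that forms the core of the complex, varied most between mice of a group. It read 8.35, 7.97 and 7.84 in the controls, where mouse 1 stood well above the other two, and 7.95, 8.16 and 7.99 in ATF4 mKO muscle. The pooled SD was 0.20, at percentile 83.2 of all features, and the ATF4 mKO values lay within the range of the controls. The log2 fold change was -0.02 ± 0.14 (SE). It was 0.13 without control mouse 1 and -0.12 without control mouse 3, so its direction was not settled. Dld averaged 10.30 ± 0.09 in controls and 10.25 ± 0.14 in ATF4 mKO muscle (SD, n = 3), at 96.6% of control.

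The kinase and the phosphatase of the complex both had means above control. Bckdk, the kinase, read 8.27, 8.06 and 8.21 in controls and 8.21, 8.25 and 8.30 in ATF4 mKO muscle. Ppm1k, the phosphatase, read 6.83, 6.57 and 6.49 in controls and 6.73, 6.67 and 6.81 in ATF4 mKO muscle. The groups overlapped in both genes, since control mouse 1 lay above 2 of the ATF4 mKO values for Bckdk and above all 3 for Ppm1k. Bckdk stood at 105% of control (0.07 ± 0.08, SE) and Ppm1k at 108% (0.11 ± 0.11, SE). The Ppm1k difference was the largest of the 10 in size, with an unadjusted p of 0.335 and an adjusted p of 1.00 in limma. It became 0.21 without control mouse 1 and 0.04 without control mouse 3, and that of Bckdk became 0.12 without control mouse 1 and 0.0092 without control mouse 2.

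The leucine route runs through isovaleryl-CoA dehydrogenase, encoded by Ivd, and methylcrotonyl-CoA carboxylase, a biotin enzyme with subunits encoded by Mccc1 and Mccc2. Ivd read 7.17, 7.08 and 6.98 in controls and 7.15, 7.27 and 7.08 in ATF4 mKO muscle. Only ATF4 mKO mouse 2 exceeded every control, and the difference was 0.09 ± 0.09 (SE), or 106% of control. It was 0.04 without that mouse and 0.13 without control mouse 1. The carboxylase subunits had means on opposite sides of control. Mccc1, the biotin-carrying subunit, went from 7.43 ± 0.15 to 7.37 ± 0.16 (SD, n = 3) and Mccc2, its partner, from 7.09 ± 0.17 to 7.13 ± 0.12 (SD, n = 3). ATF4 mKO mouse 3 held the lowest Mccc1 value of all mice, 7.20, beside a Mccc2 value of 7.26 that came second to that of control mouse 1. Without ATF4 mKO mouse 3 the Mccc1 difference was 0.03, and without control mouse 2 the Mccc2 difference was -0.04, so both directions rested on single mice.

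Hibadh, the 3-hydroxyisobutyrate dehydrogenase of the valine route, was the steadiest of the 10 genes. It read 8.65, 8.61 and 8.61 in controls and 8.55, 8.61 and 8.56 in ATF4 mKO muscle. Its pooled SD of 0.03 stood at percentile 0.988 of all features. It was the 1 gene of the 10 whose groups did not overlap, with each ATF4 mKO value below each control, where 7.78% of all features had groups apart and 3.89% were apart in the lower direction. The gap between the lowest control and the highest ATF4 mKO value was 0.0047, and it closed with quantile normalisation and with median centring, both of which left 0 of the 10 genes apart. Hibadh stood at 96.3% of control, with a 95% interval of 86.3% to 107%. An exact two-sided permutation test returned p = 0.10, the lowest value possible with 3 mice a group. Any full separation of the groups gives that value, so the test adds nothing to it. The limma fit gave an unadjusted p of 0.444. Its SE, and so the interval, draws on the variance of all features. In limma without variance moderation the unadjusted p was 0.0716, still above 0.05.

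**Figure D3:**
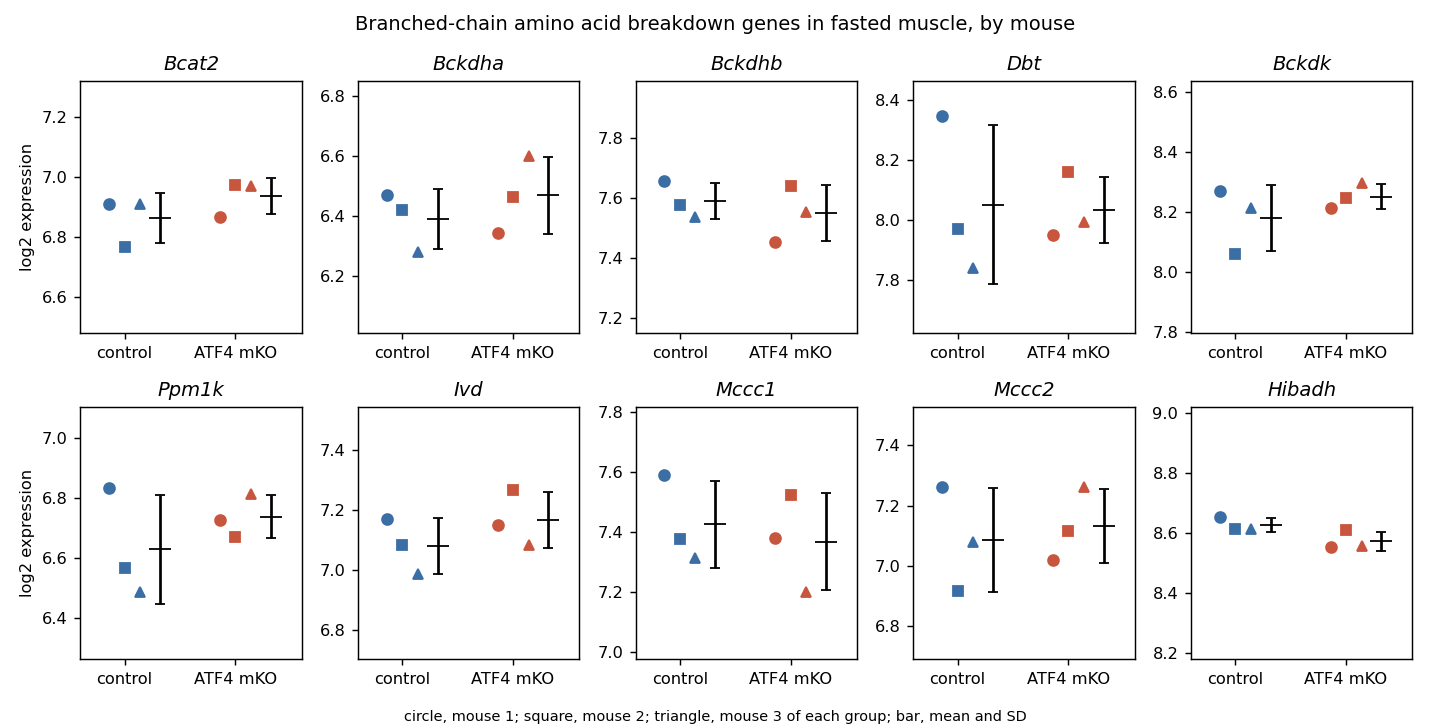
Log2 expression of the 10 genes in each mouse, controls in blue and ATF4 mKO mice in red, with the mean and SD of 3 mice as black bars. Every panel spans the same height on the log2 scale. The groups overlap in each panel but that of Hibadh, where they lie 0.0047 apart, and Dbt shows the widest spread among controls.

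Pairs of genes that act on one enzyme were then compared within each mouse, which asks whether their changes were unequal. Bckdha relative to Bckdhb differed by 0.12 ± 0.07 (SE) between ATF4 mKO and control mice, and Mccc1 relative to Mccc2 by -0.10 ± 0.16 (SE). For Bckdk relative to Ppm1k, kinase against phosphatase, the difference was -0.04 ± 0.09 (SE). The exact two-sided permutation p-values were 0.20, 0.70 and 0.80, or 0.60, 0.80 and 0.80 after Benjamini-Hochberg adjustment over the 3 pairs, in a design whose smallest p is 0.10. Leaving out ATF4 mKO mouse 3 lowered the value of the E1 pair to 0.06 and turned the sign for the carboxylase pair, to 0.04, and leaving out control mouse 3 did so for the kinase and phosphatase pair, to 0.05.

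The spread among controls had a pattern over the genes. Control mouse 1 gave the highest of the 3 control values in 9 of the 10 genes and the highest of all 6 values in 6 of them. Control mouse 3 gave the lowest control value in 6 genes and control mouse 2 in 4. Among ATF4 mKO mice, mouse 1 gave the lowest value in 7 genes. Such counts were not made over all features, so whether the pattern is particular to these genes was not tested. On average over the 10 genes, control mouse 1 stood 0.12 above the control mean, against -0.0067 over all features. Its median deviation was 0.09 over the 10 genes, 0.03 over the other genes of the pathway and -0.02 over 13 genes of mitochondrial content. Without control mouse 1, the median log2 fold change of the 10 genes was 0.12 and 8 of them had means above control. Without control mouse 2 it was -0.01, so the median lay on either side of 0 according to which control was left out. No gene of the 10 passed the threshold in either case.

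**Figure D4:**
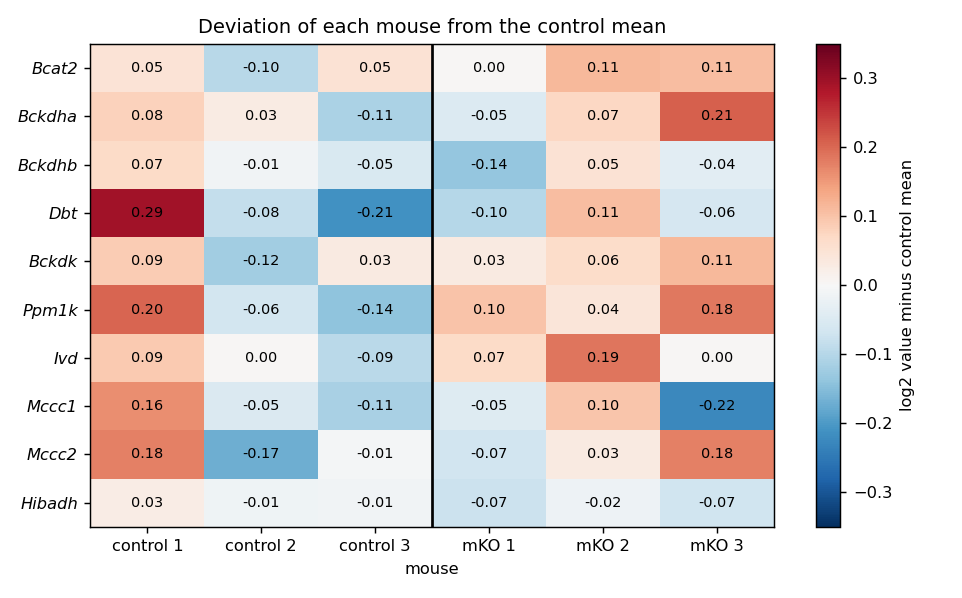
Difference of each mouse from the control mean, in log2 units, for the 10 genes (rows) and 6 mice (columns), coloured red above and blue below 0. Control mouse 1 lies above the control mean in all 10 rows, and no ATF4 mKO column has 1 colour throughout.

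The other genes of the pathway were read from a list of 27, of which 25 had a feature. None passed the threshold in limma in either direction. None had an unadjusted p under 0.05, against 3.09% of all features, and none had groups apart, against 7.78%. At these shares, 0 of 25 does not set these genes apart from features at large. Their median log2 fold change was 0.01, with 14 above control and 11 below. Oxct1, which encodes the enzyme that lets muscle use ketone bodies, had the smallest unadjusted p (0.125). It read 9.42, 9.44 and 9.54 in controls and 9.53, 9.14 and 9.12 in ATF4 mKO muscle. ATF4 mKO mice 2 and 3 lay below every control, and mouse 1 did not. The difference was -0.21 ± 0.12 (SE), or 86.7% of control with an interval of 71.5% to 105%.

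Ppargc1a, the coactivator PGC-1 alpha, which promotes mitochondrial gene expression, came next with -0.19 ± 0.12 (SE), or 87.7% of control. Klf15, a transcription factor that glucocorticoids induce and that is known to raise Bcat2 in muscle, read 7.23, 6.84 and 7.15 in controls and 6.85, 7.26 and 7.06 in ATF4 mKO muscle. The groups spanned nearly the same values, and the difference was -0.01 ± 0.14 (SE). Acadsb, the short branched-chain acyl-CoA dehydrogenase of the isoleucine route, stood at 106% of control, as did Pccb, a propionyl-CoA carboxylase subunit. Acadm, a medium-chain acyl-CoA dehydrogenase of fatty acid oxidation, stood at 107%.

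**Figure D5:**
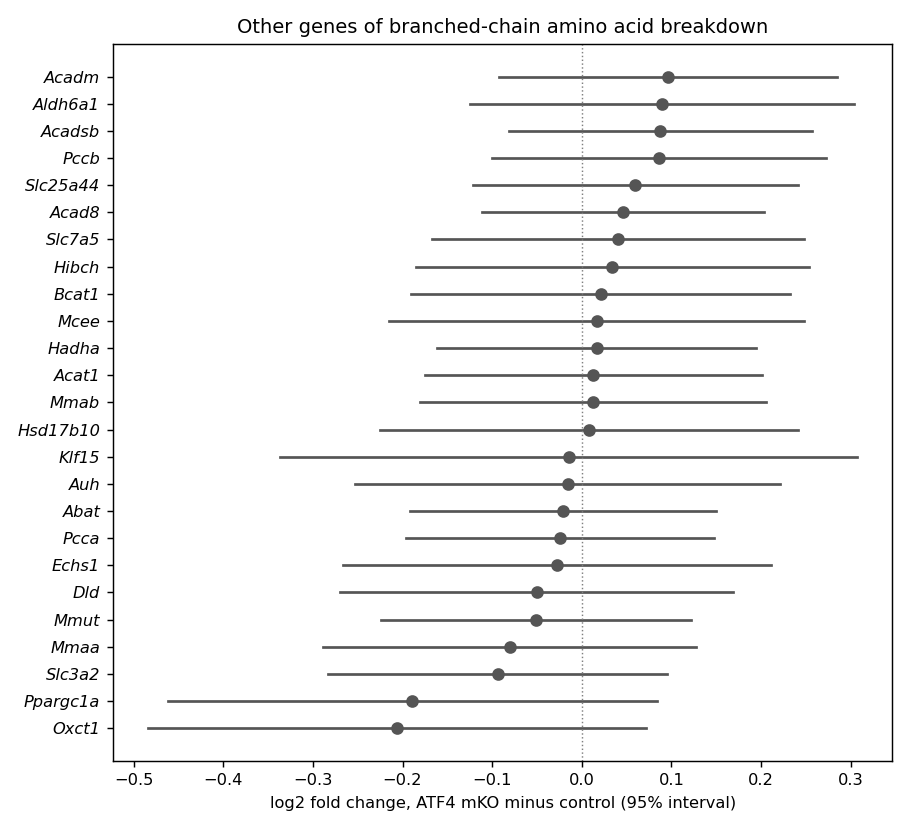
Log2 fold change, ATF4 mKO minus control, with its 95% interval from limma for the 25 other genes of the pathway, ordered by value. All 25 intervals hold 0, and the points run from -0.21 for Oxct1 to 0.10 for Acadm.

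Sorted by step, the means lay on both sides of control in 6 of 9 groups of genes. Of 5 genes of transport and transamination, 4 had means above control, and of the 4 subunits of the dehydrogenase complex 1 did. For the leucine, valine and propionyl-CoA steps the counts above control were 2 of 5, 3 of 5 and 3 of 6. For steps shared with fatty acid oxidation or ketone use the count was 3 of 4. Oxct1 was counted with the leucine steps, where it had the lowest value, -0.21, and not with the shared steps. Both regulators of the complex and both genes of the isoleucine route had means above control, and both transcription regulators had means below it. None of the genes at any step passed the threshold. The 13 genes of mitochondrial content, such as citrate synthase, had a median log2 fold change of 0.05, and none of them passed either. Of these, 11 had means above control and 2 below, where 50.6% of all features were above. Citrate synthase was among those below, at 97.0% of control. In 3 of the 13 the groups were apart, 2 higher and 1 lower, where 7.78% of all features were apart. Markers of other cells were also read. The mean level of the 6 adipocyte markers ranged from 6.30 to 6.37 in controls and from 6.26 to 6.35 in ATF4 mKO mice. That of the 5 endothelial markers ranged from 7.01 to 7.103 in controls and from 7.106 to 7.20 in ATF4 mKO mice. These ranges only just failed to overlap. The same held for the 7 muscle fibre markers, at 11.70 to 11.714 in controls and 11.723 to 11.76 in ATF4 mKO mice. All 7 had means above control, with a median log2 fold change of 0.03, and none passed. Array medians ran from 5.84 to 5.91, and whether these gaps hold under other scalings was not tested. The part of endothelial or fibre RNA in the values of the 10 genes was not tested.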

How the data were processed

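The deposited values are log2 expression, 1 per feature and mouse; the scale was read from the values (1.63 to 13.0). Per the submitters' processing notes, the authors used GCOS, RMA and the mouse build mm9, with versions not given in the sources used here. Per the labels' protocols, 50 ng of total RNA was amplified to cDNA and biotin-labelled. RMA corrects background, equalises array distributions and summarises probes, which compresses differences near background. Array medians were 5.84 to 5.91 and array correlations 0.983 to 0.991. No detection calls were made, as scanner files were not used here. Precision is limited by the number of arrays.

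Gene names came from the platform annotation, with symbols updated through Entrez identifiers (14941 of 14996 features with 1 symbol matched RefSeq, GRCm38.p6). Where features with 1 symbol shared a gene, the one with the highest mean stood for it. Both groups were fitted over all 16755 features with limma 3.58.1 (R 4.3.3; lmFit, eBayes, group as the only term) and Benjamini-Hochberg adjustment at 0.05. SEs are limma's, save those of gene pairs, which come from the 3 values a group. The fit was tested on simulated data. The mice are separate animals. The labels do not say whether the numbers in the titles pair them, so the main fit did not pair mice. Deviations of same-numbered mice correlated at -0.0021, 0.07 and 0.14, which cannot settle whether mice were paired.

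Named were Atf4, Yars, the 10 genes, and from the other pathway genes the 6 with the smallest p plus Klf15, Dld and Slc25a44. Slow fibre, fibroblast, macrophage, satellite cell and erythroid markers were read too; their median log2 fold changes were -0.03, 0.11, 0.10, 0.0091 and 0.26, and none of their genes passed. The genes and lists were chosen with earlier results of these data known.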

Additional observations from a re-analysis of the deposited data

How the results depend on the processing

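The count of 0 breakdown genes past the threshold, and of 0 among the other pathway genes, held under all 15 alternative settings, which covered the replicate number as a block, scaling, filters on low features, variance moderation, array weights and each mouse left out. The adjusted p of the 10 genes was 0.983 or above throughout, and at an adjusted p under 0.10 the count was again 0. The block, the filters on features and the changes of variance moderation leave the fold change of a gene as it was. Only other scaling, array weights or removal of a mouse could thus turn a sign. Under these, Bcat2, Bckdha, Bckdk, Ppm1k, Ivd and Hibadh kept their sign. Bckdhb changed it in 1, Mccc1 in 2, and Dbt and Mccc2 in 3 each. The median of the 10 genes ran from -0.01 to 0.12 without 1 mouse and was 0.0007 with array weights. The 2 features called over all 16755 became 1 with the replicate block, 1 with median centring, 5 when the lowest tercile of features by mean was left out, 7 when the lower 50% were, 4 when features had to have exactly 1 symbol, and 7 with an intensity trend and robust moderation. They became 0 in limma without variance moderation (632 at an unadjusted p under 0.05), 4 at an adjusted p under 0.10, and 1 without each mouse (range 1 to 1). Where 1 call was left, it was Atf4 and not Yars. No breakdown gene was among those called. Averaging several features of a gene was not run, since each gene had 1. The check of groups apart under other scalings was chosen after seeing the data. In the main fit, 1 more call would have needed a change of 0.70 to 1.41 on the log2 scale, according to the gene. Smaller changes would thus not have been called there with 3 mice a group. The size needed under the other settings was not computed.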
